A study of Mus musculus with 6 samples.

Results

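Retnla and 7 further genes tied to alternative macrophage activation, namely Chil3, Mrc1, Mgl2, Il4ra, Stat6, Irf4 and Pdcd1lg2, were followed in the epididymal fat of mice lacking the transferrin receptor gene Tfrc in a tissue-restricted manner. All 8 symbols were found among the 35275 genes of the deposited table, and 7 of them passed the filter on low values (at least 0.5 FPKM in 3 samples); Pdcd1lg2 did not. The 8 genes were picked with the rise of Retnla in these same samples already known, so their levels in control and knockout tissue are given as a description without a test. The 3 control samples are labelled Tfrcfl/fl and the 3 knockout samples TfrcAKO, an abbreviation in use for adipocyte knockout that the labels do not spell out; the Cre driver is not given in the sources used here. All 6 came from male C57BL/6 mice fed 60% fat for 10 weeks from the age of 2 months and sampled at 4.5 months, so control and knockout tissue alike is that of fat-fed mice. Values are FPKM, fragments per kilobase of gene length and 1000000 gene-assigned reads, which can be compared between genes as well as between samples.

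Alternative activation is the state that macrophages enter when interleukin-4 or interleukin-13 binds a receptor containing IL-4Rα. Janus kinases at that receptor phosphorylate STAT6, which enters the nucleus and switches on a set of genes, helped by factors such as IRF4. The classical mouse readouts of this program are the secreted proteins RELMα (Retnla) and Ym1 (Chil3), the lectin receptors CD206 (Mrc1) and CD301b (Mgl2), the checkpoint ligand PD-L2 (Pdcd1lg2), and arginase. In fat the program is linked to eosinophils and group 2 innate lymphoid cells, which supply the cytokines, and it is usually described as a feature of lean rather than inflamed adipose tissue.

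As a check of the labels, Tfrc read 11.1, 13.2 and 11.9 FPKM in the control samples and 7.10, 8.27 and 9.50 FPKM in the knockout samples. The groups did not overlap, and the difference was -0.52 ± 0.12 (limma standard error) on the log2(FPKM + 0.5) scale used for all differences here, with an adjusted p of 0.0147. That call was lost in the absence of control replicate 2 (0.0596) or control replicate 3 (0.0527). The libraries held 25252839 to 30650624 gene-assigned reads. Genes were tested with limma and called at a Benjamini-Hochberg adjusted p under 0.05 over all 14383 tested genes; 6253 of them (43.5%) were called, 21.9% higher and 21.6% lower in the knockout. This background itself rests on single libraries: 3371 genes were called in the absence of control replicate 2 (14.2% higher, 9.21% lower) and 3456 in that of control replicate 3 (13.2% higher, 10.8% lower), and list counts without those libraries are to be read against these shares. Knockout replicate 3 stood apart, with the lowest macrophage and the highest adipocyte marker levels of all 6 samples.

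The 8 genes did not move as a block. Retnla was 5.96-fold higher in knockout than in control tissue, and Mgl2 was 1.82-fold higher. Mrc1 was 2.38-fold lower, and the receptor and transducer genes Il4ra and Stat6 were lower by smaller factors of 1.26 and 1.18. Chil3, Irf4 and Pdcd1lg2 had overlapping groups. Control and knockout samples did not overlap for 5 of the 8 genes (2 higher, 3 lower in knockout tissue). Among all 14383 tested genes 60.1% had groups that do not overlap, 29.1% higher and 31.0% lower, and since the genes were chosen on this contrast nothing is read from the comparison.

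The promoters of 5 of these genes are shown because the program is defined by a DNA-binding factor, and because genes on either side of the response can be compared. STAT factors bind a palindrome of TTC and GAA; STAT6 favours a spacer of 4 bases (TTCNNNNGAA), other STAT factors one of 3 (TTCNNNGAA). The sequences are RefSeq's for GRCm38.p6, the assembly also called mm10, read 5′ to 3′ on the strand of the gene; each ends one base before the first annotated base of the gene, and capitals mark matches to either spacing.
Retnla, chr16:48842359-48842551, plus strand: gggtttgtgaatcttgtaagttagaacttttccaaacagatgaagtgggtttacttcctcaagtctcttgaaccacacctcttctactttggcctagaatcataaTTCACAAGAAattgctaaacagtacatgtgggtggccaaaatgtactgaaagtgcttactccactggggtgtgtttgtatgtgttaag
Mgl2, chr11:70130107-70130328, plus strand: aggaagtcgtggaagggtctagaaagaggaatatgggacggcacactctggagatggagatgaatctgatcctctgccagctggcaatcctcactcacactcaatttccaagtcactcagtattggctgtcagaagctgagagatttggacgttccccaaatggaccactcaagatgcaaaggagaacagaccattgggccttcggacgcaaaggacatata
Mrc1, chr2:14229164-14229413, plus strand: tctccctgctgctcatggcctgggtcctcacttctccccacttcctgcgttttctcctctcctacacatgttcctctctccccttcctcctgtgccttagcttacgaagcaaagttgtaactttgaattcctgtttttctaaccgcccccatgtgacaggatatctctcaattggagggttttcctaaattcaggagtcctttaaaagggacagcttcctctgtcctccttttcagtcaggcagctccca
Chil3, chr3:106167565-106167814, minus strand: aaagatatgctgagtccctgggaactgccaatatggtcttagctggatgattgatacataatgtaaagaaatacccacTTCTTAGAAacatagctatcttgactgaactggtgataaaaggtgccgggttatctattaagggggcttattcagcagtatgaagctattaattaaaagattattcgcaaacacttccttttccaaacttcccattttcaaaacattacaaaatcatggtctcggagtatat
Pdcd1lg2, chr19:29410669-29410918, plus strand: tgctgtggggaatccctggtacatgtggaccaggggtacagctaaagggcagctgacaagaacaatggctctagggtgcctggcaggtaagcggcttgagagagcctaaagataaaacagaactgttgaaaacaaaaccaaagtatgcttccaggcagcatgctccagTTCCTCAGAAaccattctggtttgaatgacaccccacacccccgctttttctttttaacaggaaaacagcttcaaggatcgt

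Retnla holds one match with the STAT6 spacing, TTCACAAGAA, at positions -145 to -136 counted from the RefSeq start site. A match to the C/EBP letters TTGCNNAA, TTGCTAAA, lies at -134 to -127, right beside it. Pdcd1lg2 holds the other match with the STAT6 spacing, TTCCTCAGAA, at -82 to -73. Chil3 holds TTCTTAGAA, with the shorter spacer, at -172 to -164. No match to either spacing was found in the 300 bases searched for Mgl2, Mrc1, Il4ra, Stat6 or Irf4, a statement about these letters in these windows only. Both strands were searched, from 250 bases before to 50 after the start; of 32817 RefSeq windows of that length 6.94% held TTCNNNNGAA, 8.29% TTCNNNGAA and 10.8% TTGCNNAA. Retnla, with the largest difference, and Pdcd1lg2, the gene nearest to the detection floor, thus carried the same kind of match, and Mgl2, the other gene that was higher, carried none. The letters GAGGAA, searched for the factor PU.1, matched in Retnla, Mgl2, Mrc1, Stat6, Irf4 and Pdcd1lg2 but not in Chil3 or Il4ra. They occurred in 28.3% of the RefSeq windows. A match describes the letters and not whether a factor is bound there.

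Il4ra (mm10 chromosome 7, 125552282 to 125579472) encodes IL-4Rα, the subunit shared by the receptors for interleukin-4 and interleukin-13. Its level was 13.6, 14.1 and 14.3 FPKM in the control samples (replicates 1, 2 and 3, the order used throughout) and 12.9, 9.87 and 10.6 FPKM in the knockout samples. All knockout samples lay below all control samples, but knockout replicate 1 came within 1 FPKM of the lowest control. The means were 14.0 ± 0.387 and 11.1 ± 1.61 FPKM (SD, n = 3 each), a log2 difference of -0.33 ± 0.11 (SE). In whole tissue, fewer cells of a type and less RNA per cell cannot be told apart, for this gene or any below.

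Stat6 (chromosome 10, 127642986 to 127660957), the transcription factor of the pathway, was the more abundant of the pair and the steadier. Control replicates 1, 2 and 3 were at 51.0, 57.4 and 55.9 FPKM, and knockout replicates 1, 2 and 3 at 48.6, 45.9 and 45.1 FPKM. The groups did not overlap, with a gap smaller than the range within the control group. The means were 54.8 ± 3.38 and 46.5 ± 1.81 FPKM (SD, n = 3 each), a log2 difference of -0.23 ± 0.08 (SE). Stat6 overlaps Nab2 on the opposite strand, which averaged 10.0 FPKM. With no strand setting stated for the counting, reads from the stretch that this pair shares cannot be assigned with certainty.

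Irf4 (chromosome 13, 30749226 to 30766927), an interferon regulatory factor that works downstream of STAT6 in macrophages and also acts in B cells, dendritic cells and adipocytes, had nearly equal group means. Control samples were at 3.04, 2.75 and 3.30 FPKM and knockout samples at 3.67, 3.23 and 2.33 FPKM, in the order of replicates 1, 2 and 3. The knockout group held both the highest and the lowest sample. The log2 difference was 0.0042 ± 0.16 (SE), and its sign turned when single libraries were left out: it was -0.05 without control replicate 2, -0.12 without knockout replicate 1 and -0.04 without knockout replicate 2.

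Retnla (ENSMUSG00000061100), on chromosome 16 from 48842552 to 48844461 in mm10, encodes RELMα, a small secreted protein of the resistin family. Control replicates 1, 2 and 3 were at 57.7, 42.6 and 61.8 FPKM. Knockout replicates 1, 2 and 3 were at 354, 298 and 313 FPKM. Every knockout sample lay far above every control sample, and the 3 knockout samples were close to each other, with a coefficient of variation of 9.06% against 18.8% in control. The means of 54.0 ± 10.1 and 322 ± 29.2 FPKM (SD, n = 3 each) gave a log2 difference of 2.58 ± 0.16 (SE), rank 14 of 14383 tested genes from the largest rise downward. Between 663 and 6496 reads per sample stood behind these values, and no 50-base stretch of the Retnla transcript occurred in a transcript of another GENCODE M21 gene.

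Chil3 (chromosome 3, 106147554 to 106167564) encodes Ym1, a chitinase-like protein without enzyme activity that is secreted by the same kind of macrophage, and its level was low in every sample. The control samples gave 0.913, 0.898 and 1.83 FPKM and the knockout samples 0.912, 1.21 and 0.643 FPKM. The groups overlapped, and control replicate 3 was the highest sample. The log2 difference was -0.25 ± 0.25 (SE), from 25 to 83 reads per sample, and between -0.39 and -0.0041 with single libraries left out, the latter without control replicate 3. Of the 50-base stretches in Chil3 transcripts 26.9% were shared with another gene, most of them with its near-identical neighbour Chil4, so its value is uncertain; Chil4 itself had at most 3 reads in any sample.

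Mrc1 (chromosome 2, 14229414 to 14332057) encodes CD206, the mannose receptor that takes up glycoproteins, and was the most abundant of the 8 genes in control tissue. The control samples gave 88.3, 97.4 and 87.7 FPKM, the knockout samples 45.2, 46.6 and 23.3 FPKM. The groups were well apart, and knockout replicate 3 was the lowest sample by a wide margin. The means were 91.1 ± 5.46 and 38.4 ± 13.02 FPKM (SD, n = 3 each), a log2 difference of -1.30 ± 0.26 (SE), which was -0.98 without knockout replicate 3.

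Mgl2 (chromosome 11, 70130329 to 70137550) encodes CD301b, a galactose-type lectin found on macrophages and on a subset of dendritic cells, and was the only one of the 7 other genes that was higher in every knockout sample. The control samples gave 8.45, 9.96 and 11.1 FPKM, the knockout samples 18.3, 19.4 and 16.0 FPKM. The means were 9.84 ± 1.33 and 17.9 ± 1.72 FPKM (SD, n = 3 each), a log2 difference of 0.84 ± 0.12 (SE). Its close relative Clec10a, which encodes CD301a, moved the other way, from 113 ± 35.4 to 53.5 ± 14.9 FPKM (SD, n = 3 each), and was lower in the knockout in limma with a Benjamini-Hochberg adjusted p of 0.0273. That call was lost without control replicate 2 (adjusted p = 0.0908) or control replicate 3 (adjusted p = 0.0866). Of the 50-base stretches in Mgl2 transcripts 13.1% were shared with other genes, most of them with Clec10a, so the values of the pair are uncertain to that degree.

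Pdcd1lg2 (chromosome 19, 29410919 to 29471157), the gene of PD-L2, was barely detected. It was at 0.188, 0.117 and 0.124 FPKM in control and at 0.0992, 0.0691 and 0.120 FPKM in knockout samples, which corresponds to 3 to 9 reads per sample. A count of 3 reads on this gene is worth 0.0595 to 0.0722 FPKM, a floor that covers counting error only, and the groups overlapped. No difference was detectable at this depth. A gene on the opposite strand, A930007I19Rik, overlaps it at 0.715 FPKM on average, so some of these few reads may be of that gene.

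**Figure D1:**
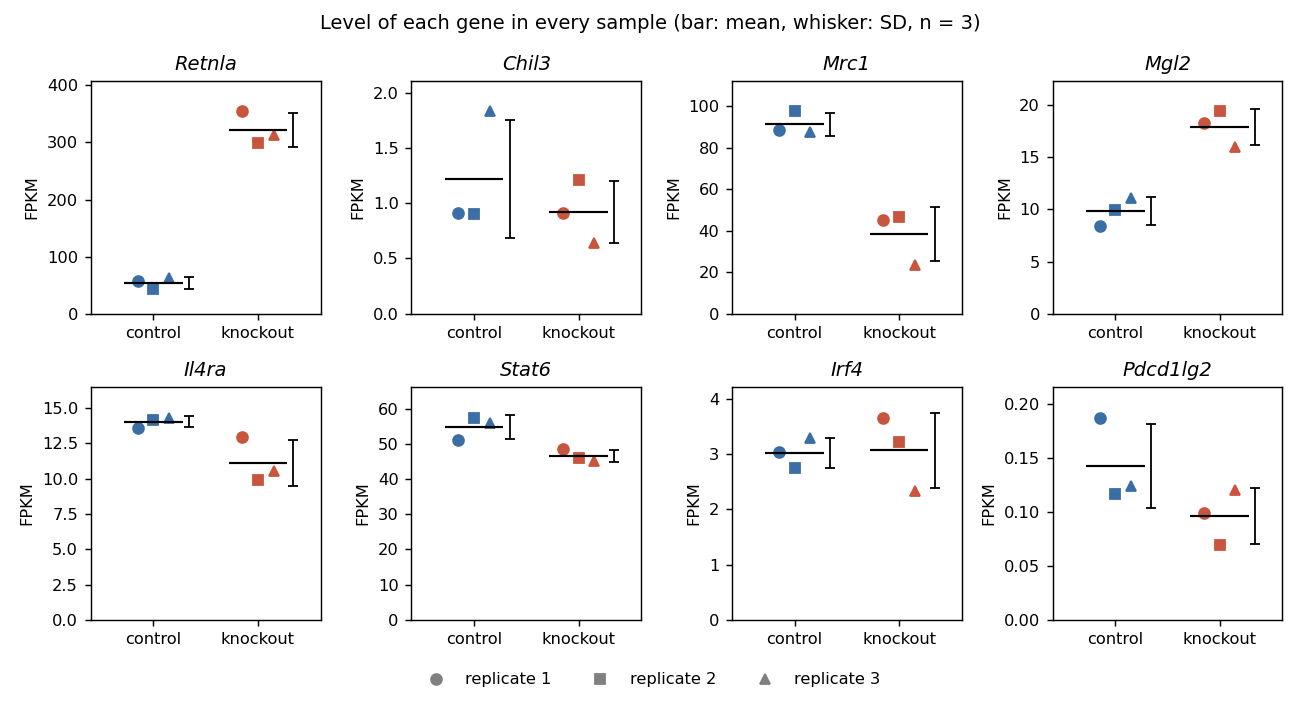
FPKM of each of the 8 genes in the 3 control (blue) and 3 knockout (red) samples; symbols mark the replicate, horizontal lines the group means and whiskers the SD (n = 3). Retnla and Mgl2 sit higher in all knockout samples, Mrc1, Il4ra and Stat6 lower, and Chil3, Irf4 and Pdcd1lg2 overlap.

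Because Retnla and its companions moved apart, the ratio between them within a sample shifted. Retnla was below Mrc1 in every control sample, with FPKM ratios of 0.653, 0.437 and 0.705 in replicates 1, 2 and 3. In the knockout it exceeded Mrc1, with ratios of 7.85, 6.41 and 13.4. Against Stat6 the ratio went from 0.993 ± 0.218 to 6.91 ± 0.404 (SD, n = 3 each), and against Il4ra from 3.86 ± 0.734 to 29.1 ± 1.49. Against Mgl2, the gene that moved the same way, it went from 5.56 ± 1.28 to 18.1 ± 2.36. Of the 6 other genes that passed the filter, Mgl2 had the smallest difference in log2 ratio to Retnla, 1.74, and Mrc1 the largest, 3.88. These ratios are free of the scaling of each library, and they use the contrast that led to the choice of Retnla.

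**Figure D2:**
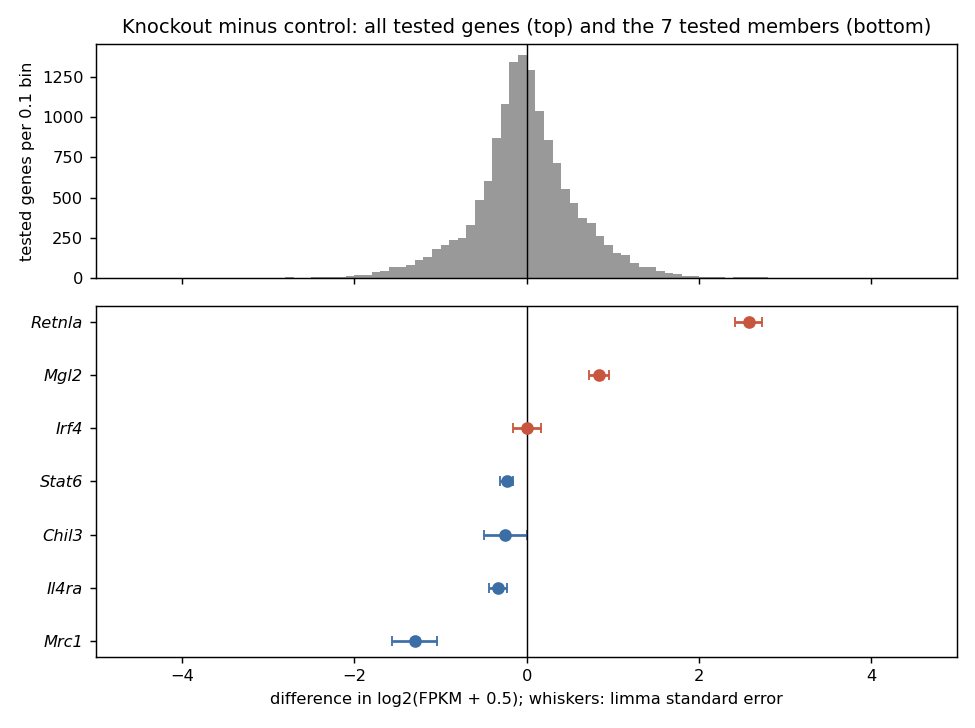
Difference between knockout and control on the log2(FPKM + 0.5) scale; top, histogram of all 14383 tested genes; bottom, the 7 tested genes with their limma standard errors. Retnla at 2.58 lies in the far right tail, Mgl2 at 0.84 on the right shoulder, and Mrc1 at -1.30 in the left tail.

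Macrophage markers fell in the same samples. Of 16 markers 14 were lower and 0 higher in limma (0 higher also at an unadjusted p under 0.05 and with limma-voom), with a median log2 difference of -1.17 against -0.03 over all tested genes and 21.6% of all tested genes called lower. Aif1, Itgam, Laptm5 and Lyz2 were among them; Lyz2, lysozyme, went from 3284 ± 346 to 1179 ± 447 FPKM (SD, n = 3 each). Leaving out control replicate 2 gave 5 lower markers and leaving out control replicate 3 gave 7, when 9.21% and 10.8% of all tested genes were called lower. The summed level of the list was 7930 to 9362 FPKM in control and 1849 to 4334 FPKM in knockout samples, none of its genes was at 0, and knockout replicate 3 was lowest. That library was also lowest within its group for Mrc1, Mgl2, Stat6, Irf4 and Chil3, but not for Retnla, Il4ra or Pdcd1lg2. The part of these markers in the results was not tested.

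Set against the mean log2 level of those 16 markers in the same sample, the 8 genes fell into another order. Mrc1 was at -0.83, -0.83 and -0.88 relative to the markers in the control samples and at -1.05, -0.86 and -0.86 in the knockout samples, so that its groups overlapped and its difference was -0.07. Retnla went from -1.44, -2.02 and -1.38 to 1.91, 1.81 and 2.86, a difference of 3.81. Mgl2 differed by 2.06 on this scale. Irf4, Stat6, Chil3 and Il4ra, which were level or lower per library, were higher relative to the markers in every knockout sample, by 0.90 (Il4ra) to 1.23 (Irf4). Pdcd1lg2 differed by 1.12, but at 3 to 9 reads per sample its log2(FPKM + 0.5) is set mostly by the added 0.5. Its value therefore mirrors the marker mean, which went from 7.36 in control to 6.14 in knockout samples, and shows no rise of the gene. Chil3, at 25 to 83 reads, is affected in part. Without knockout replicate 3 the differences of Il4ra and Pdcd1lg2 were 0.58 and 0.74 instead of 0.90 and 1.12. A gene that other cells also express rises on this scale whenever the markers fall, so these values describe the ratio and not the level in macrophages. A list of resident perivascular macrophage markers, described below, had a mean log2 level of 4.28 in control and 4.26 in knockout samples. The values here thus hold for the 16 markers used.

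**Figure D3:**
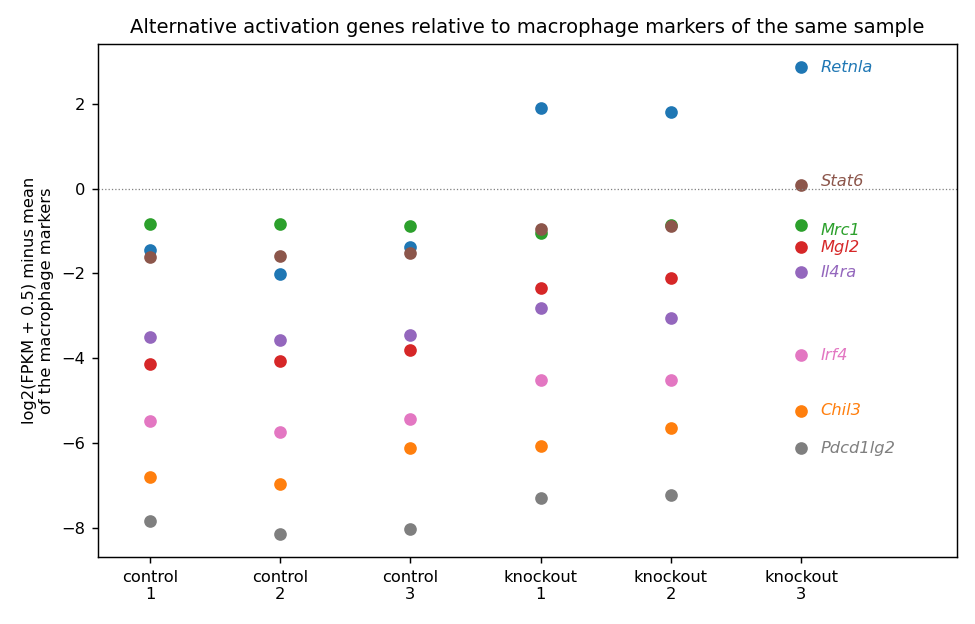
Each of the 8 genes as log2(FPKM + 0.5) minus the mean of 16 macrophage markers in the same sample, for control replicates 1 to 3 and knockout replicates 1 to 3; points at 0 equal the marker mean, and in knockout replicate 2 the point of Stat6 covers that of Mrc1. Mrc1 keeps the range of -1.05 to -0.83 in all 6 samples, and Retnla moves from below the markers to above them.

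The genes around the receptor moved in both directions. Of 20 genes of interleukin-4 and interleukin-13 receptors and their signalling, 19 were tested, and in limma 5 were higher and 6 lower in the knockout, with a median log2 difference of -0.24. Among all tested genes 21.9% were called higher and 21.6% lower. Leaving out either control replicate 2 or control replicate 3 gave 3 higher genes, when 14.2% and 13.2% of all tested genes were called higher. Ptpn1, the phosphatase PTP1B, which restrains Janus kinase signalling, fell by 0.99 ± 0.14 (SE, adjusted p = 0.00454), and Il2rg, the common γ chain of the type I receptor, fell by 0.63 ± 0.11 (adjusted p = 0.00701). Tyk2, a Janus kinase, fell by 0.48 ± 0.10 (adjusted p = 0.00999). Irs2, an adaptor that links the receptor and also the insulin receptor to PI3-kinase, rose by 1.13 ± 0.22 (SE, adjusted p = 0.00974).

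Other genes of that list, named after their values were seen, showed the same mixture. Ptpn6, the leukocyte phosphatase SHP-1, fell by 1.61 ± 0.33 (SE, adjusted p = 0.0102). Jak3, the kinase that pairs with the γ chain, rose by 0.52 ± 0.11 (adjusted p = 0.0114), and Il13ra2, the decoy receptor for interleukin-13, rose by 0.91 ± 0.18 (adjusted p = 0.01002), all in limma. Jak1, the kinase bound to IL-4Rα, had a log2 difference of -0.13 ± 0.09 and an adjusted p of 0.304, and Il13ra1 had -0.48 ± 0.21 and 0.106. Without knockout replicate 3 these differences were -0.05 and -0.22. Socs1, a feedback inhibitor, had -0.33 ± 0.20 and 0.211; dropping knockout replicate 1 gave -0.52 and 0.0481, and dropping knockout replicate 3 gave -0.15 and 0.473. Of the cytokine genes, Il4 went from 3.65 ± 1.31 to 2.92 ± 0.944 FPKM (SD, n = 3 each; limma adjusted p = 0.463), with overlapping groups; its log2 difference of -0.28 was -0.03 without control replicate 2 and -0.02 without knockout replicate 3. Il13 did not pass the filter, with at most 9 reads in a sample.

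Further targets of alternative activation also moved in both directions, but more of them downward. Of 28 genes, excluding the 8, 24 were tested, 4 were higher and 11 lower in limma, and the median log2 difference was -0.55, where 21.9% of all tested genes were called higher and 21.6% lower with a median of -0.03. Leaving out either control replicate 1 or control replicate 3 gave 2 higher genes, when 17.5% and 13.2% of all tested genes were called higher. Tfec, a transcription factor induced by interleukin-4 in macrophages, fell by 1.92 ± 0.20 (SE, adjusted p = 0.00363) and Myc fell by 0.78 ± 0.12 (adjusted p = 0.00477). Ccl24, an eosinophil chemoattractant, rose by 1.13 ± 0.15 (adjusted p = 0.00409), from 1.62, 2.26 and 1.40 FPKM in control to 4.48, 4.26 and 4.42 FPKM in knockout tissue. Flt1, a VEGF receptor that endothelial cells also express, rose by 1.35 ± 0.17 (adjusted p = 0.00377). All knockout samples of Ccl24 lay above all control samples and close together.

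The remaining increases and the best known targets were looked up after their values were seen. Kdm6b, a histone demethylase, rose by 0.69 ± 0.16 (SE, adjusted p = 0.0151), a call lost without control replicate 1 (adjusted p = 0.0501) or 3 (adjusted p = 0.0554). Klf4, a transcription factor that cooperates with STAT6, rose by 0.35 ± 0.12 with an adjusted p of 0.0498; in limma it was lost in 5 of the 6 fits that leave out 1 library, the exception being knockout replicate 3, with adjusted p between 0.0696 and 0.144, and also with a pseudocount of 0.1 (adjusted p = 0.0505). Arg1, arginase, was lower (-1.45 ± 0.44, adjusted p = 0.0378), but not without any single control library (adjusted p between 0.0729 and 0.110) nor without knockout replicate 2 (adjusted p = 0.0571), and its difference was -0.93 without knockout replicate 3. Egr2, induced by interleukin-4, fell by 1.93 ± 0.35 (adjusted p = 0.00778), Cd200r1, an inhibitory receptor, by 1.91 ± 0.38 (adjusted p = 0.00955), and Clec7a, the β-glucan receptor dectin-1, by 1.56 ± 0.25 (adjusted p = 0.00569). Il1rn and Mmp12 fell by 2.26 ± 0.45 and 2.95 ± 0.48 (adjusted p = 0.00973 and 0.00591).

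**Figure D4:**
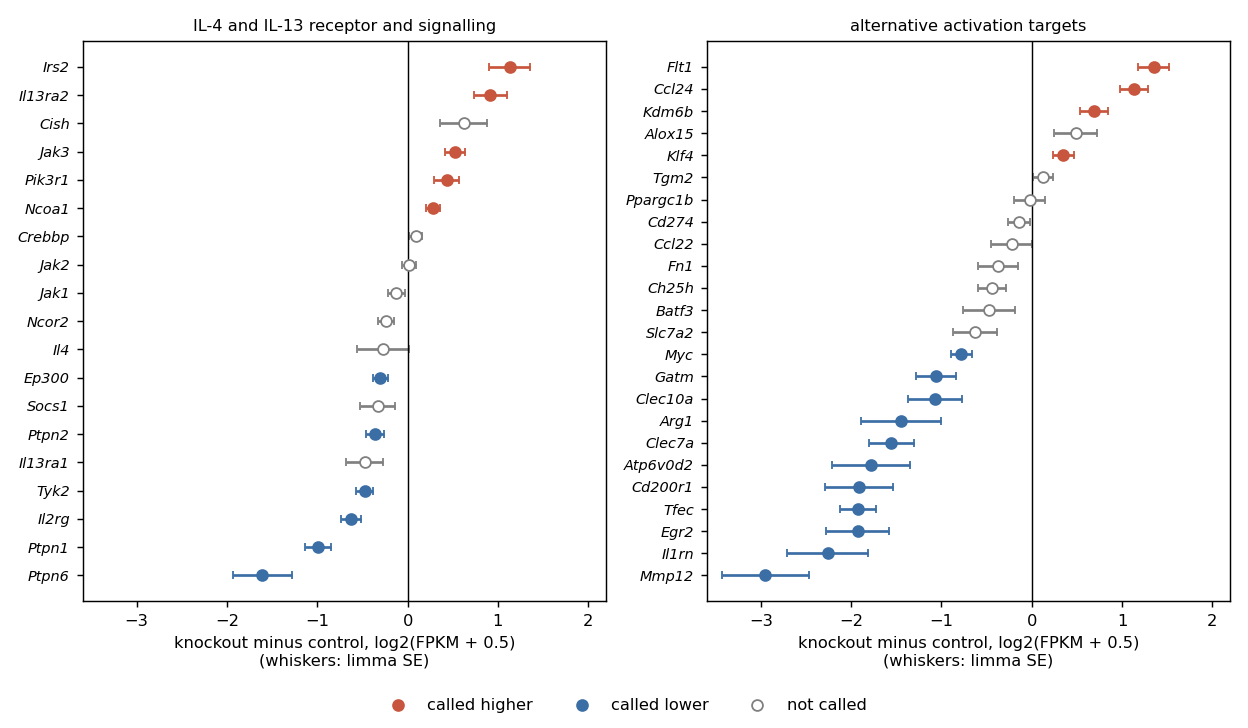
Knockout minus control on the log2(FPKM + 0.5) scale with limma standard errors for the tested genes of the receptor and signalling list (left, 19 genes) and the target list (right, 24 genes), the 8 genes above left out; filled points were called higher (red) or lower (blue) at an adjusted p under 0.05. The targets spread from -2.95 (Mmp12) to 1.35 (Flt1), with 11 called lower and 4 higher.

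Genes of the cells that supply or answer type 2 cytokines were often near the floor. Of 21 genes of type 2 cytokines, innate lymphoid cells and eosinophils only 11 passed the filter; 4 were lower and 0 higher in limma (1 higher at an unadjusted p under 0.05, 0 with limma-voom), with a median log2 difference of -0.20 and 21.6% of all tested genes called lower. Ccr3, the eotaxin receptor, fell by 1.55 ± 0.19 (SE, adjusted p = 0.00372), Ear1 by 1.12 ± 0.24 (adjusted p = 0.0123), Il1rl1, the interleukin-33 receptor, by 1.08 ± 0.25 (adjusted p = 0.0151), and Il7r by 1.25 ± 0.40 (adjusted p = 0.0418). Lower genes numbered 1 in the absence of control replicate 2 and 2 in that of control replicate 3. Higher genes numbered 1 in the absence of control replicate 2 and 2 in that of knockout replicate 3, when 14.2% and 21.3% of all tested genes were called higher. Ear1 lost its call without control replicate 2 (adjusted p = 0.0518), Il1rl1 without control replicate 2 or 3 (0.0612 and 0.0522), and Il7r without any control library or knockout replicate 2 (adjusted p between 0.0589 and 0.124), while its difference was -0.75 without knockout replicate 3. The size of the difference depended on the scale for Ccr3 and Ear1, at -2.38 and -1.74 with a pseudocount of 0.1 and -2.73 and -1.89 with limma-voom. Ear1 belongs to a family of near-identical ribonucleases and is uncertain.

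Genes of classical activation, the opposite pole to the program of Retnla, were called in shares not far from those of all tested genes (21.9% higher, 21.6% lower). Of 20 genes 15 were tested, with 4 higher and 5 lower in limma and a median log2 difference of -0.22; without control replicate 3, 3 were lower. Cd38 and Cxcl9, an interferon-induced chemokine, rose by 0.66 ± 0.09 and 0.75 ± 0.12 (SE, adjusted p = 0.00415 and 0.00542). Tnf and Cd40 fell by 0.98 ± 0.15 and 0.82 ± 0.15 (adjusted p = 0.00541 and 0.00727).

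Resident perivascular macrophages are a population known for Mrc1. Of their 14 markers 1 was higher and 2 lower in limma, against 21.9% and 21.6% of all tested genes, and the median log2 difference was 0.04. Folr2 fell by 1.39 ± 0.33 (SE, adjusted p = 0.0155), Pf4 fell by 0.62 ± 0.19 (adjusted p = 0.0393), and Cd209d rose by 0.55 ± 0.17 (adjusted p = 0.0373), with overlapping groups. These calls were fragile. Higher markers numbered 4 in the absence of knockout replicate 3, when 21.3% of all tested genes were called higher. They numbered 0 in the absence of control replicate 2 or 3 or knockout replicate 1 or 2. The shares of all tested genes called higher were then 14.2%, 13.2%, 19.8% and 18.9%, in that order. Lower markers numbered 1 in the absence of control replicate 1, when 2159 of the 14383 tested genes were called lower. They numbered 0 in the absence of control replicate 2 or 3, against 9.21% and 10.8% of all tested genes. Folr2 lost its call without control replicate 2 or 3 (0.0578 and 0.0530), Pf4 without any control library (0.0921, 0.116 and 0.0940 for replicates 1, 2 and 3; its difference was -0.39 without knockout replicate 3), and Cd209d without control replicate 2 or 3 or knockout replicate 1 or 2 (between 0.0924 and 0.122), all limma adjusted p. The summed level of the list was 609 to 649 FPKM in control and 351 to 569 FPKM in knockout samples. That sum leans on Folr2, with group means of 202 and 82.5 FPKM, and Pf4, with 135 and 90.1 FPKM. Gas6, also abundant, had means of 106 and 110 FPKM. The mean log2 level of the whole list was 4.28 ± 0.0081 in control and 4.26 ± 0.32 in knockout samples (SD, n = 3 each).

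Dendritic cell and B-lineage genes bear on Mgl2, Pdcd1lg2 and Irf4, which those cells also express. Of 12 tested dendritic cell genes 2 were higher and 2 lower in limma, no more than the 21.9% and 21.6% of all tested genes, and the median log2 difference was -0.0052. Zbtb46, a factor of conventional dendritic cells that endothelium shares, rose by 0.78 ± 0.12 (SE, adjusted p = 0.00485) and Itgae by 0.54 ± 0.16 (adjusted p = 0.0295; 0.82 with a pseudocount of 0.1 and 0.94 with limma-voom). Itgax, the CD11c integrin, fell by 1.86 ± 0.40 (adjusted p = 0.0118), as did Clec10a, described above, which this list shares with the target list. The call of Itgax was lost without control replicate 2 (adjusted p = 0.0508) and that of Itgae in 5 of 6 fits without 1 library, knockout replicate 1 excepted (between 0.0516 and 0.0990). Higher genes numbered 1 in the absence of any control library or of knockout replicate 2. Among all tested genes 17.5%, 14.2% and 13.2% were called higher without control replicates 1, 2 and 3, and 18.9% without knockout replicate 2. Lower genes numbered 0 in the absence of control replicate 2 and 1 in that of control replicate 3, against 9.21% and 10.8%. The summed level was 256 to 378 FPKM in control and 111 to 195 FPKM in knockout samples, most of it from Itgax and Clec10a, with control means of 138 and 113 FPKM and knockout means of 41.1 and 53.5 FPKM.

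Among 9 tested B and plasma cell genes 2 were lower and 0 higher in limma (0 higher also at an unadjusted p under 0.05 and with limma-voom), a share lower that is close to the 21.6% of all tested genes. The list as a whole still lay lower. Its median log2 difference was -0.72, against -0.03 over all tested genes, and every tested gene had a negative difference. The 2 called lower were Prdm1 (-0.77 ± 0.13, adjusted p = 0.00686) and Sdc1 (-1.07 ± 0.26, adjusted p = 0.0173), and the latter is made by other cells of fat as well. Sdc1 lost its call without control replicate 2 (0.0642) or 3 (0.0645). Lower genes numbered 1 in the absence of control replicate 2 or 3 and 4 in that of knockout replicate 1, when 21.3% of all tested genes were called lower. Ms4a1, which encodes the B cell surface protein CD20, went from 1.53 ± 0.932 to 0.716 ± 0.567 FPKM (SD, n = 3 each), without being called. The summed level of the list was 136 to 148 FPKM in control and 43.1 to 96.3 FPKM in knockout samples, and its part in the level of Irf4 was not tested.

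Retnla has relatives, whose levels are given for comparison. Retn, resistin, a product of mouse adipocytes, was at 82.4, 49.0 and 53.9 FPKM in control and 235, 249 and 704 FPKM in knockout replicates 1, 2 and 3, and rose by 2.51 ± 0.44 (SE, limma adjusted p = 0.00705). Its knockout values spread widely, with replicate 3 the highest, whereas Retnla was highest in knockout replicate 1. Retnlb had at most 2 reads and Retnlg at most 19 reads in any sample. Of the 7 family genes, 2 were tested, with 1 higher and 0 lower in limma (1 lower at an unadjusted p under 0.05, 0 with limma-voom). The 1 higher was Retn, which is also counted among the adipocyte markers below. Among all tested genes 21.9% were called higher and 21.6% lower, and 2 genes are too few to read against these shares. Chil1, the other gene tested, had an adjusted p of 0.0631. With knockout replicate 3 left out it was the 1 family gene called lower, when 20.1% of all tested genes were called lower.

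The genes whose profile over the 6 samples lay nearest to that of Retnla were Rbp7, Rbp4, Timp4, Id1 and Ass1. Likeness was the root mean square difference between the log2(FPKM + 0.5) values of 2 genes, each centred on its own mean, among 8205 genes averaging 5 FPKM or more. It was 0.22 for Rbp7 and 0.24 for Rbp4, which bind retinol, 0.29 for Timp4, an inhibitor of matrix metalloproteinases, 0.31 for Id1, an inhibitor of DNA-binding helix-loop-helix factors, and 0.34 for Ass1, argininosuccinate synthase. Rbp7 was at 18.3, 16.9 and 18.7 FPKM in control and 86.0, 86.0 and 92.1 FPKM in knockout tissue. Mgl2 was at 0.90, Irf4 at 1.30, Stat6 at 1.42, Chil3 at 1.44, Il4ra at 1.46 and Mrc1 at 1.98 on the same measure, whose median over the tested genes was 1.33. Among all 14383 tested genes Mgl2 ranked 967 and Mrc1 13986 in nearness to Retnla, with Retnla itself not counted. Rbp7 ranked 2 on that count, since a nearer gene fell outside the search.

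Adipocyte markers moved upward in the samples in which Retnla was higher. Of 17 markers 16 rose and 0 fell in limma (0 fell also at an unadjusted p under 0.05 and with limma-voom), with a median log2 difference of 1.74, where 21.9% of all tested genes were called higher. Aqp7, Adrb3, Cidec and Adipoq were the 4 with the smallest p; Adipoq, adiponectin, went from 384 ± 98.9 to 1464 ± 356 FPKM (SD, n = 3 each). The mean log2 level of the list was 6.64 to 7.17 in control and 8.37, 8.44 and 9.16 in knockout replicates 1, 2 and 3. Its highest sample, knockout replicate 3, was not the highest for Retnla, and the part of these markers in the level of Retnla was not tested.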

How the data were processed

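RNA sequencing libraries of epididymal fat from 3 control and 3 knockout samples were compared. Per the submitters' processing notes, CASAVA, FastQC, STAR 2.5, HTSeq 0.6.1 and build mm10 were used; neither strand setting nor annotation release nor filters are stated there. The authors deposited FPKM per gene, one column per sample, per the file headers. The sum of FPKM times kilobases of length was 1000000 for every sample, and all values above 0 were whole multiples of 1 read within 0.01 of a read, which gave the reads per gene (25252839 to 30650624 per sample).

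Genes with at least 0.5 FPKM in 3 samples were tested with limma 3.58.1 (R 4.3.3, statmod 1.5.0) on log2(FPKM + 0.5), with trend and robust moderation, two-sided, Benjamini-Hochberg adjusted over all 14383; called means an adjusted p under 0.05. The procedure was tried on simulated reads in which far fewer genes changed than were called here. That run does not show how it behaves under a difference as broad as this one. Within groups, replicates were further apart than counting noise allows (chi-square per degree of freedom 15.5 to 98.1). Nothing in the labels says whether the samples are different animals, and p-values thus reflect only the spread among these 6 samples, which may be technical.

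The 8 genes and the 10 lists (165 of 166 entries found in the table) were chosen with earlier results of these data known. Named are the 8 genes, Tfrc, up to 4 called genes per list by smallest p, the 5 profiles nearest to Retnla, and genes said to be chosen after their values were seen. Alternatives were pseudocounts of 0.1 and 1, a filter at 1 FPKM, no filter, a replicate block, median-of-ratios scaling, limma-voom on the recovered reads, and leaving out each sample. The alternatives for values relative to macrophage markers were added after seeing the data. Python 3.11.15 prepared tables and figures.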

Additional observations from a re-analysis of the deposited data

How the results depend on the processing

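Leaving out 1 library at a time kept the sign of the log2 difference of every one of the 8 genes except Irf4: 2.42 to 2.68 for Retnla, 0.74 to 0.92 for Mgl2, -1.47 to -0.98 for Mrc1, -0.44 to -0.25 for Il4ra, -0.28 to -0.20 for Stat6, -0.39 to -0.0041 for Chil3, -0.14 to -0.06 for Pdcd1lg2 and -0.12 to 0.16 for Irf4. With a pseudocount of 0.1 Pdcd1lg2 was at -0.30; scaling and limma-voom could not give it a value, because it was not tested. Counts of called genes ranged, over fits without 1 library, from 3371 to 5958 for all genes (1897 to 3063 higher, 1324 to 3064 lower), and (higher, then lower) 3 to 5 and 4 to 7 for receptor and signalling genes, 2 to 4 and 8 to 12 for targets, 0 to 2 and 1 to 5 for type 2 genes, 3 to 5 and 3 to 6 for classical activation, 0 to 0 and 5 to 15 for macrophage, 0 to 4 and 0 to 2 for perivascular, 1 to 2 and 0 to 2 for dendritic cell, 0 to 0 and 1 to 4 for B-lineage, and 1 to 1 and 0 to 1 for family genes. Fewer samples enter those fits; the cause was otherwise not tested. With no filter 0 perivascular markers were higher and 1 lower, and 1 dendritic cell gene was lower, when 11.2% of all genes in that fit were called higher and 10.0% lower. With a filter at 1 FPKM 1 dendritic cell gene was higher, as fewer genes were tested, when 23.1% of all genes in that fit were called higher. The replicate numbers are not said to pair the samples, and no sign of pairing was seen. Deviations of same-numbered samples correlated at -0.24, 0.03 and -0.18 across genes, and those of differently numbered samples at -0.08 to 0.23. With 3 samples per group this cannot show that the samples were unpaired. With the replicate block 4581 genes were called (15.8% of all tested genes higher, 16.1% lower), 3 signalling genes were higher and 4 B-lineage genes lower. Of the 55 named genes outside the 8 the block ended the call of Klf4 alone (adjusted p = 0.0988). With no filter Il7r, Cd209d, Pf4, Clec10a, Arg1 and Klf4 were not called (limma adjusted p between 0.0505 and 0.0883). All 55 kept their side of the threshold under both other scalings. Depth limits Pdcd1lg2, Chil3 and Il13.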
